A study of Macaca mulatta with 56 samples.

Results

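The hippocampus was set against the occipital cortex, the neocortex that holds the visual areas, in 14 old female rhesus macaques that gave both regions. The comparison used 28 of the 56 libraries of the series, the 14 labelled hippocampus (HIP) and the 14 labelled occipital cortex (OC), paired by animal. The 14 prefrontal cortex (PFC) libraries served only to place the occipital values, and the 14 amygdala libraries only to check gene names. Of 17807 identifiers in the table, 11796 (66.2%) could be named, because their symbol stood on 1 identifier and their mean log2 level in the other 3 regions lay within 2 of that in the amygdala. All animals were 19.4 to 23.2 years old, ate a Western-style diet with 36% of calories from fat, and had undergone ovariectomy and hysterectomy (OvH) about 6 weeks into that diet of a 30-month study. In 7 of them capsules released estradiol (OvH-HT), with a mean serum level of 82.1 pg/mL, and in the other 7 (OvH) the capsules were empty, with 6.6 pg/mL. Each library was made from a piece of pulverized tissue, in which cell types and hippocampal fields are mixed. Values are upper-quartile normalized read counts, here called normalized counts. A log2 difference is HIP minus OC on the log2(normalized count + 1) scale, given with its standard error (SE), and a gene is said to have risen or fallen where limma's paired test had an adjusted p under 0.05. That scale understates the difference of genes with low counts.

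The hippocampus is an older, simpler type of cortex. Its principal cells are the granule cells of the dentate gyrus and the pyramidal cells of the CA fields, which are all glutamatergic and are linked in a chain that serves memory. It lies against the ventricle, which is lined by ependymal cells and holds the choroid plexus, and in many mammals its dentate gyrus keeps making neurons after birth. The occipital neocortex has layers set up by a different group of transcription factors, and in primates its primary visual area receives a dense input from the thalamus and expresses genes that other areas hold at low levels.

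The libraries labelled hippocampus of animals 30 and 43, both OvH, went against their label. FIBCD1, a membrane receptor that marks CA1 pyramidal cells in mouse, had 4239 to 15186 normalized counts (median 11084) in the other 12 HIP libraries, but 226.3 and 340.0 in those of animals 30 and 43. OC libraries had 50.2 to 206.4 (median 96) and PFC libraries 262.8 to 650.9 (median 431.3), so both libraries fell in the gap or in the prefrontal range. RORB, a transcription factor of neocortical layer 4, had 4278 and 1727 normalized counts in the libraries labelled hippocampus of animals 30 and 43 and 20.1 to 194.5 in the other 12. Centred on the 3 regions, the profile of each library was correlated over 13652 identifiers with the median profile of each region in the other animals. The other 12 HIP libraries correlated with the hippocampus profile at 0.41 to 0.72, while those of animals 30 and 43 correlated with it at -0.30 and -0.27 and with the prefrontal profile at 0.44 and 0.51. All 14 OC and all 14 PFC libraries were nearest to their own region. For the PFC libraries of animals 32 and 40 this was by a small margin. Their r was 0.11 and 0.17 with the prefrontal profile and 0.09 and 0.13 with the occipital one. Over 138 identifiers chosen because OC and PFC libraries of an animal shared their level, 12 of 14 HIP libraries matched their own animal best (r = 0.79 to 0.92), but those of animals 30 and 43 had r = 0.08 each with their own animal and at most 0.13 with any. These correlations are across identifiers, which are not independent replicates. Differences are therefore given in all 14 pairs and in the 12 pairs without animals 30 and 43. These 2 libraries were set aside for their regional profile. Larger differences, shorter SE, smaller p and separated groups in the 12 pairs follow in part from that choice. They are not independent support for the 14 pairs. HIP libraries held 34.63 to 82.13 mega-reads and OC libraries 49.74 to 82.91, with a mean difference of -2.35 mega-reads (exact permutation test, p = 0.649).

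**Figure D1:**
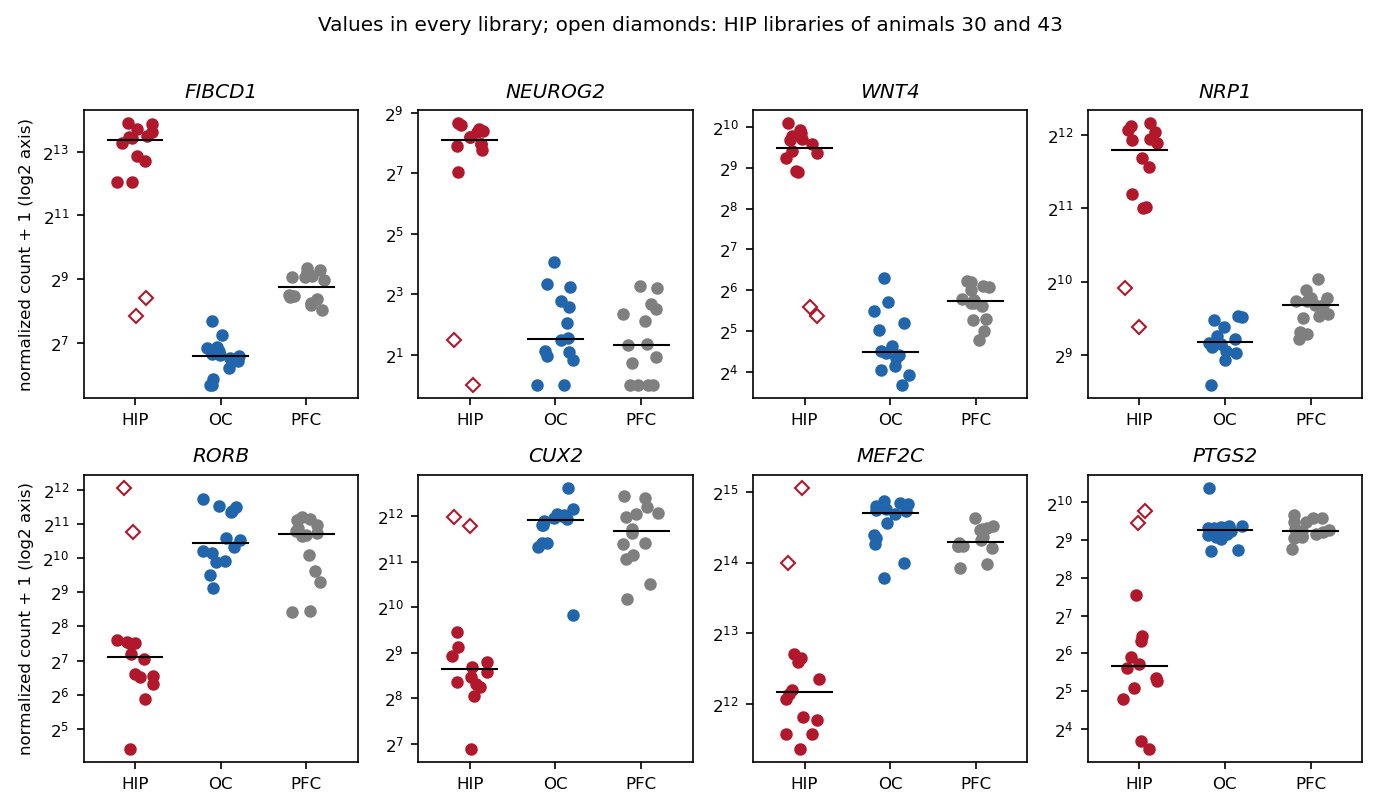
Normalized counts of 8 genes in every library, on a log2 axis after adding 1, with HIP, OC and PFC from left to right (14 libraries each) and bars at the medians. The open diamonds are the libraries labelled hippocampus of animals 30 and 43, which lie within or just beside the cortical values in all 8 panels, such as 4004 and 3539 for CUX2 against 117.1 to 703.7 in the other 12 HIP libraries.

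Of 16342 identifiers tested over the 14 pairs, 4071 (24.9%) were higher and 3235 (19.8%) lower in hippocampus than in occipital cortex. At least 2-fold differences passed for 1329 (8.13%) higher and 772 (4.72%) lower. Without animals 30 and 43 the counts were 4666 higher and 3965 lower of 16314 tested, with 1475 and 924 at least 2-fold. Of 7298 calls that could still be tested without those animals, 6996 were made again in the same direction. The median difference over all identifiers was 0.03 in both sets of pairs. Names carry an error of their own: an estimated 14.2% to 21.9% of the names that passed the level check may belong to another row. Among the 177 genes named by rule, the neighbouring rows also passed the check for 137.

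The 15 largest rises among genes that were higher in all 14 animals ran from 3.92 to 5.93 in 14 pairs. Of these 15, 14 could be tested between OC and PFC with limma, and all 14 were lower in OC. That test shares the OC libraries with the comparison of HIP and OC. FIBCD1 differed by 5.93 ± 0.47 (SE, 14 pairs; adjusted p = 1.94e-08) and by 6.69 ± 0.17 in 12 pairs, a 104-fold difference between groups that did not overlap. ADGRG2, an orphan adhesion receptor best known from the epididymis, had 724.0 to 1935 normalized counts (median 1245) in the 12 HIP libraries and 184.9 and 109.7 in those of animals 30 and 43, against 7.34 to 32.6 (median 19.3) in OC. Every library labelled hippocampus lay above every OC library, and the difference was 5.60 ± 0.39 in 14 pairs and 6.18 ± 0.22 in 12 pairs (adjusted p = 4.43e-09 and 2.97e-12). PFC libraries had 37.6 to 163.7, above every OC library and below the 12 HIP libraries. ALOX15, a lipoxygenase that oxidizes arachidonic acid, had 716.9 to 3003 normalized counts (median 1829) in the 12 HIP libraries and 112.3 and 75.6 in those of animals 30 and 43, against 13.3 to 65.1 (median 33.2) in OC. Its difference was 5.04 ± 0.39 in 14 pairs and 5.63 ± 0.20 in 12. For TSPAN18, a tetraspanin, the 12 HIP libraries ran from 1611 to 5454 (median 3682), those of animals 30 and 43 had 135.9 and 129.5, and OC libraries ran from 47.6 to 140.1 (median 79.9). Without those 2 libraries its groups lay far apart and the difference was 5.24 ± 0.12 (adjusted p = 1.71e-14), against 4.63 ± 0.37 with them.

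RASAL1, which switches off Ras, had 2265 to 6846 normalized counts (median 4372) in the 12 HIP libraries and 456.8 and 1106 in those of animals 30 and 43, against 64.8 to 263.2 (median 120.7) in OC. No library labelled hippocampus overlapped the occipital range, and the difference was 4.82 ± 0.28 in 14 pairs and 5.19 ± 0.19 in 12 (adjusted p = 5.95e-10 and 3.2e-12). PFC libraries had 557.1 to 1442, above every OC library and below the 12 HIP libraries. CABP7, a calcium-binding protein of the Golgi, rose by 4.73 ± 0.38 in 14 pairs and 5.33 ± 0.17 in 12. Also among the 15 were HES2, HTR1A, NPFFR2, WNT4, RTP5, PRSS12, ATP2C2 and MAB21L2, with differences from 3.92 to 5.23 in 14 pairs and from 4.32 to 5.89 in 12. PRSS12, neurotrypsin, cleaves agrin at synapses, and RTP5 belongs to the receptor transporter proteins.

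**Figure D2:**
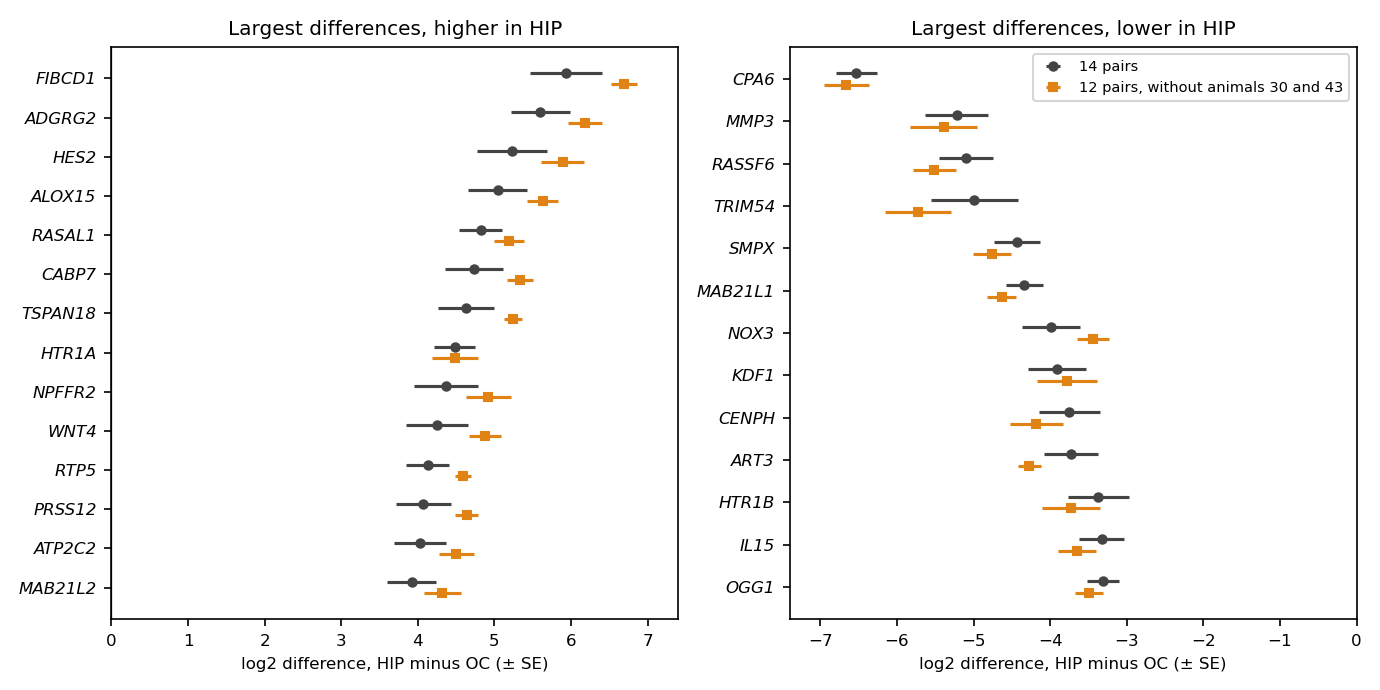
The named genes with the largest rises and the largest falls in hippocampus, among genes with the same sign in all 14 animals; points are log2 differences, HIP minus OC, and bars are SE. Circles are all 14 pairs and squares the 12 pairs without animals 30 and 43, which for most genes lie farther from 0 with shorter bars, as for FIBCD1 at 6.69 against 5.93.

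Of 19 markers of hippocampal fields tested, 16 rose, 1 fell and 2 did not pass, with a median difference of 1.43 against 0.03 over all identifiers, and the counts were the same in 12 pairs with a median of 1.45. Between the cortices, 14 of the 19 were lower and 2 higher in OC than in PFC, with a median of -0.58. Over all identifiers tested there, 29.8% were lower and 21.1% higher. Part of the rise over OC thus went with a low occipital level. The summed list was 70691 to 98168 normalized counts (median 81053) in the 12 HIP libraries and 32605 and 35058 in those of animals 30 and 43, against 27172 to 41212 (median 33354) in OC. NTF3, neurotrophin-3, had 188.2 to 678.9 normalized counts (median 360.3) in the 12 HIP libraries and 7.6 and 21.6 in those of animals 30 and 43, against 5.62 to 41 (median 14.5) in OC. The 12 libraries were clear of the occipital range and the other 2 were inside it, and the difference was 3.90 ± 0.43 in 14 pairs and 4.56 ± 0.20 in 12 (adjusted p = 8.11e-07 and 2.01e-11). RGS14, which marks CA2 in mouse and limits G protein signalling, rose by 3.63 ± 0.25 and 4.02 ± 0.13 in 14 and 12 pairs. C1QL3, secreted at synapses of granule cell axons in mouse, rose by 2.61 ± 0.15 in 14 pairs and 2.61 ± 0.16 in 12, and its relative C1QL2 by 2.28 and 2.54. PFC libraries had 1994 to 4163 normalized counts of C1QL3, which overlapped the 2766 to 6405 of HIP, against 516.4 to 1127 in OC. CALB1, the calcium buffer calbindin of granule and CA1 cells, rose by 2.14 and 2.34. NECTIN3, an adhesion molecule of synaptic contacts, was the member that fell, by -0.57 in 14 pairs and -0.62 in 12. WFS1, an endoplasmic reticulum protein that marks CA1 in mouse, rose by 0.61 ± 0.10 and 0.58 ± 0.10 with overlapping groups.

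Transcription factors separated the regions in both directions. Among 19 genes of the medial pallium, the embryonic source of the hippocampus, 12 rose and 4 fell, with a median of 0.59 in 14 pairs and 0.64 in 12. In 14 pairs 24.9% of all identifiers were higher and 19.8% lower. In OC against PFC, 12 of these 19 were lower and 2 higher, with a median of -0.52. PROX1, which fixes granule cell identity, had 151.8 to 1045 normalized counts (median 501.4) in the 12 HIP libraries and 393.5 and 343.6 in those of animals 30 and 43, against 38.8 to 254.9 (median 102.6) in OC. It was higher in HIP in all 14 animals although the groups overlapped, and the difference was 2.22 ± 0.27 (adjusted p = 2.65e-06) in 14 pairs and 2.21 ± 0.28 in 12. PFC libraries had 58.5 to 727.0, so PROX1 in the 2 libraries was also within the prefrontal range. ZBTB20, needed for CA1 fate in mouse, rose by 2.10 ± 0.24 in 14 pairs and 1.83 ± 0.21 in 12, yet the highest HIP values were the 188.3 and 233.9 of animals 30 and 43, and PFC reached 257.6. MEIS2, a homeobox factor of the same list, had 526.5 to 1072 normalized counts (median 615.3) in the 12 HIP libraries and 2362 and 1630 in those of animals 30 and 43, against 1302 to 2990 (median 2146) in OC, and fell by -1.39 ± 0.18 in 14 pairs and -1.60 ± 0.14 in 12. DMRTA2, which sets medial pallial fate, rose by 1.31 and 1.69.

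Of 16 neocortical layer factors, 3 rose and 7 fell in 14 pairs, and 3 rose and 9 fell in 12, with medians of -0.37 and -0.46. In 14 pairs 24.9% of all identifiers were higher and 19.8% lower. CUX2, of the upper layers, had 117.1 to 703.7 normalized counts (median 368.4) in the 12 HIP libraries and 4004 and 3539 in those of animals 30 and 43, against 905.3 to 6286 (median 3859) in OC. The 12 libraries lay below every OC library and the other 2 in the middle of them. The fall was -2.75 ± 0.32 in 14 pairs (adjusted p = 1.82e-06) and -3.15 ± 0.24 in 12 (1.79e-08), an 8.9-fold lower level in hippocampus. RORB fell by -3.16 ± 0.46 in 14 pairs and -3.84 ± 0.20 in 12, where OC had 552.3 to 3372. MEF2C, a factor of activity-dependent synapse control, had 2612 to 6677 normalized counts (median 4383) in the 12 HIP libraries and 34298 and 16399 in those of animals 30 and 43, against 14095 to 30026 (median 26846) in OC. Its fall was -2.13 ± 0.25 in 14 pairs and -2.48 ± 0.13 in 12, and TBR1, of deep layers, fell by -2.05 ± 0.19 and -2.29 ± 0.13. Levels of CUX2, RORB and MEF2C did not pass between OC and PFC (adjusted p = 0.442, 0.446 and 0.087). BCL11B and FEZF2, deep-layer factors that hippocampal neurons also use, went the other way, with rises of 2.45 ± 0.20 for BCL11B and 1.47 for FEZF2 in 14 pairs and 2.65 and 1.67 in 12.

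A set of falls was in genes that the occipital libraries held at higher levels than the prefrontal ones. The test of OC against PFC shares the OC libraries with the comparison of hippocampus and occipital cortex, so its values only stand beside it. Of 12 genes listed as enriched in primate visual cortex, 11 fell and none rose in both sets of pairs, with medians of -1.65 and -1.66, and PVALB was the member that did not pass. Between the cortices, 7 of the 12 were higher and 0 lower in OC than in PFC with limma, where 3436 of all 16259 identifiers (21.1%) were higher and 4848 (29.8%) lower. CPA6, a secreted carboxypeptidase, had 0 to 1.67 normalized counts (median 0) in the 12 HIP libraries and 0 and 3.6 in those of animals 30 and 43, against 31.7 to 418.6 (median 118.4) in OC. PFC libraries had 0 to 4.03. The occipital libraries stood alone, with a difference of -6.53 ± 0.27 in 14 pairs and -6.66 ± 0.29 in 12 (adjusted p = 1.48e-11 and 2.07e-11), and OC minus PFC was 5.86. RASSF6, of a family of Ras-binding proteins, had 0.893 to 14.2 normalized counts (median 3.85) in the 12 HIP libraries and 26.2 and 48.6 in those of animals 30 and 43, against 110.3 to 421.8 (median 234.9) in OC, and PFC had 9.32 to 40.6. It fell by -5.10 ± 0.35 and -5.51 ± 0.28 in 14 and 12 pairs. NOX3, an oxidase known from the inner ear, differed in another respect. Its 12 HIP libraries held 6.75 to 34.4 normalized counts (median 17.8) and those of animals 30 and 43 held 3.38 and 0, against 116.8 to 358.4 (median 212.4) in OC, while PFC held 0 to 16.1. The fall was -3.99 ± 0.38 in 14 pairs and a smaller -3.44 ± 0.21 in 12.

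**Figure D3:**
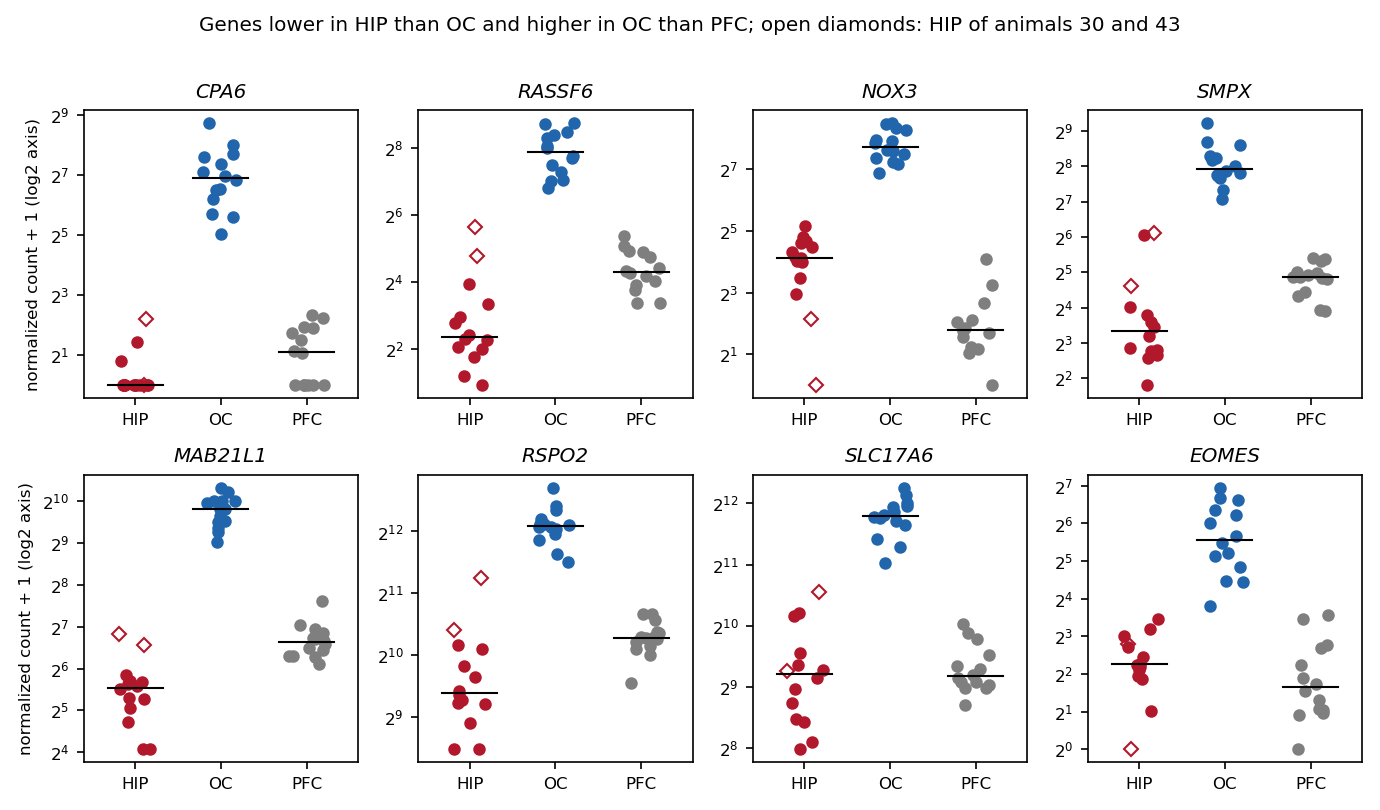
Normalized counts of 8 genes that were lower in HIP than in OC and higher in OC than in PFC, in every library, on a log2 axis after adding 1, with HIP, OC and PFC from left to right (14 each), bars at medians and open diamonds for the libraries labelled hippocampus of animals 30 and 43. The occipital libraries form the high group in each panel, such as 31.7 to 418.6 for CPA6, above every HIP and PFC library.

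SMPX, a small protein best known from muscle, had 2.51 to 64.8 normalized counts (median 7.2) in the 12 HIP libraries and 23.6 and 68.4 in those of animals 30 and 43, against 133.1 to 591.4 (median 242.6) in OC. The groups did not overlap, and the fall was -4.43 ± 0.30 in 14 pairs and -4.76 ± 0.25 in 12. MAB21L1 fell by -4.34 ± 0.24 and -4.63 ± 0.19 in 14 and 12 pairs, while its close relative MAB21L2 rose by 3.92 ± 0.32 and 4.32 ± 0.24. For MAB21L1 the 12 HIP libraries held 15.8 to 56.7 normalized counts against 524.2 to 1281 in OC, and for MAB21L2 139.1 to 587.3 against 1.24 to 32.4. RSPO2, a secreted amplifier of Wnt signalling, fell by -2.54 ± 0.18 and -2.75 ± 0.14, and FSTL1, a secreted glycoprotein enriched in primate visual cortex, by -1.59 ± 0.15 and -1.45 ± 0.13. The 2 genes were also higher in OC than in PFC, by 1.82 for RSPO2 and 1.99 for FSTL1. TRIM54, a muscle ring-finger protein, did not pass between the cortices (OC minus PFC 0.18). It had 0 to 7.05 normalized counts (median 0.9) in the 12 HIP libraries and 134.3 and 82.8 in those of animals 30 and 43, against 22.3 to 196.3 (median 133.2) in OC and 44.2 to 169.6 in PFC. The 2 libraries were again in the cortical range, and the fall of -4.99 ± 0.57 in 14 pairs was -5.72 ± 0.43 in 12.

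Also among the 15 largest falls were MMP3, KDF1, CENPH, ART3, HTR1B, IL15 and OGG1, with differences from -5.22 to -3.31 in 14 pairs and from -5.39 to -3.49 in 12. ART3, of the family of ADP-ribosyltransferases, had 27.5 to 93.2 normalized counts (median 40.3) in the 12 HIP libraries and 433.2 and 507.3 in those of animals 30 and 43, against 620.3 to 1409 (median 815.8) in OC. The groups did not overlap, and it fell by -3.73 ± 0.35 in 14 pairs and -4.27 ± 0.15 in 12. The row named OGG1, a DNA repair glycosylase, had 970.4 to 5326 normalized counts (median 2082) in the 12 HIP libraries and 3142 and 7833 in those of animals 30 and 43, against 13962 to 39456 (median 21478) in OC, and fell by -3.31 ± 0.21 in 14 pairs and -3.49 ± 0.18 in 12. The RefSeq annotation of the assembly T2T-MMU8v2.0 places CAMK1, a calcium-activated kinase, next to OGG1 and lists OGG1 among its synonyms, so that the gene behind this row is uncertain.

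The vesicular glutamate transporters went in opposite directions. SLC17A7, the main cortical vesicular glutamate transporter, had 88869 to 210296 normalized counts (median 154926) in the 12 HIP libraries and 63598 and 57503 in those of animals 30 and 43, against 41571 to 81909 (median 59297) in OC. The 12 lay above all OC libraries, and the rise was 1.21 ± 0.14 in 14 pairs (adjusted p = 2.28e-06) and 1.41 ± 0.09 in 12. SLC17A6, the transporter of thalamic neurons, had 250.9 to 1175 normalized counts (median 529.7) in the 12 HIP libraries and 1496 and 611.6 in those of animals 30 and 43, against 2074 to 4890 (median 3545) in OC, and PFC had 414.6 to 1044. It fell by -2.60 ± 0.21 in 14 pairs and -2.76 ± 0.19 in 12, and OC minus PFC was 2.47. SLC17A8, the transporter of scattered neurons that also release other transmitters, rose by 3.84 ± 0.33 and 4.15 ± 0.30, with 40.3 to 155.3 normalized counts in the 12 HIP libraries, 22 and 18 in those of animals 30 and 43, and 0 to 20.4 in OC. Of 23 glutamate receptor subunits, 11 rose and 2 fell in 14 pairs, and 10 rose and 4 fell in 12, with medians of 0.30 and 0.35. In OC against PFC, 16 of the 23 were lower and 1 higher, with a median of -0.45. The kainate subunit GRIK5 rose by 1.36 ± 0.17 and 1.61 ± 0.09 and the AMPA subunit GRIA2 by 0.90 and 0.88. GRM8 fell by -1.20 ± 0.25 and -1.54 ± 0.16, and GRIA4 by -0.96 and -1.24. Of 16 pan-neuronal markers 3 rose and 5 fell in 14 pairs, against 24.9% and 19.8% of all identifiers, and 3 rose and 7 fell in 12. These markers had summed levels of 560709 to 960062 in the 12 HIP libraries, 918648 and 752217 in those of animals 30 and 43, and 763752 to 1000806 in OC. Their part in these differences was not tested.

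GABA receptor subunits moved in both directions. Of 12 tested, 5 rose and 4 fell in both sets of pairs, with medians of 0.14 and 0.13. Among all identifiers 24.9% were higher and 19.8% lower in 14 pairs, and 4666 higher and 3965 lower of 16314 in 12. GABRA5, the alpha subunit of extrasynaptic receptors of hippocampal pyramidal cells, had 8165 to 23808 normalized counts (median 14966) in the 12 HIP libraries and 5135 and 6068 in those of animals 30 and 43, against 1407 to 2331 (median 1814) in OC. All libraries labelled hippocampus were above all OC libraries, with a difference of 2.86 ± 0.15 in 14 pairs (adjusted p = 2.9e-10) and 3.04 ± 0.12 in 12. GABRD, the delta subunit, had 2753 to 5695 normalized counts (median 3877) in the 12 HIP libraries and 7680 and 7951 in those of animals 30 and 43, against 10113 to 23089 (median 17329) in OC, and fell by -1.97 ± 0.12 and -2.06 ± 0.12. GABRB2, a beta subunit, fell by -0.99 ± 0.38 and -1.44 ± 0.27. GABRA3 rose by 1.34 ± 0.13 and 1.26 ± 0.13, and GABRB1 by 1.25 and 1.06. Among 26 interneuron genes, 6 rose and 12 fell in 14 pairs, and 6 rose and 13 fell in 12, with medians of -0.31 and -0.35. The enzymes that make GABA fell, GAD1 by -0.80 ± 0.10 and -0.85 ± 0.09 in 14 and 12 pairs and GAD2 by -0.84 and -0.93, as did its vesicular transporter SLC32A1 by -1.08 and -1.07. SST, somatostatin, rose by 0.89 ± 0.15 and 0.97 ± 0.14, and NPY by 0.51 and 0.61. PVALB, parvalbumin, had 2607 to 4833 normalized counts in the 12 HIP libraries and 1651 and 3560 in those of animals 30 and 43, against 2530 to 4452 in OC, a difference of 0.04 ± 0.12 (adjusted p = 0.833) and of 0.12 ± 0.10 in 12 pairs. CNR1, the cannabinoid receptor of CCK interneurons, rose by 1.59 ± 0.26 and 1.37 ± 0.22, and CCK itself did not pass at 0.28 ± 0.17 (adjusted p = 0.189) and 0.15 ± 0.14.

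Serotonin receptors split by subtype. HTR1A, an inhibitory receptor, had 198.6 to 1574 normalized counts (median 1047) in the 12 HIP libraries and 694.1 and 483.9 in those of animals 30 and 43, against 11.4 to 84.6 (median 36.3) in OC. The groups did not overlap and the rise was 4.48 ± 0.27 in 14 pairs and 4.48 ± 0.30 in 12 (adjusted p = 1.11e-09 and 2.66e-09). PFC libraries had 117.0 to 711.0, and OC minus PFC was -3.53. HTR1B, also inhibitory and enriched in primate visual cortex, went the other way, with 0 to 43.3 normalized counts (median 24.2) in the 12 HIP libraries and 103.0 and 143.9 in those of animals 30 and 43, against 62.1 to 610.8 (median 258.3) in OC. It fell by -3.37 ± 0.40 in 14 pairs and -3.73 ± 0.38 in 12, and the excitatory HTR2A by -2.02 ± 0.30 and -2.43 ± 0.18. HTR7 rose by 2.78 ± 0.26 and 3.18 ± 0.13, and HTR4 by 1.87 and 1.89. Over all 29 serotonin, dopamine, adrenergic and cholinergic receptors, 13 rose and 8 fell in 14 pairs, and 15 rose and 9 fell in 12. Among all identifiers 24.9% were higher and 19.8% lower in 14 pairs, and 4666 higher and 3965 lower of 16314 in 12. CHRNB4, a nicotinic subunit, rose by 3.94 ± 0.64 and 4.94 ± 0.30, with 23 to 825.8 normalized counts (median 274.0) in the 12 HIP libraries, 1.69 and 3.6 in those of animals 30 and 43, and 1.17 to 16.3 in OC. Among adrenergic receptors ADRA1D rose by 2.63 and 3.15 and ADRA2C by 1.86 and 1.99, while ADRB1 fell by -1.38 and -1.54. CHRM5 rose by 1.97 and 1.93, and CHRM2 fell by -1.41 and -1.64. TPH2, the neuronal enzyme of serotonin synthesis, rose by 3.51 ± 0.44 and 3.86 ± 0.43, with 12.2 to 265.4 normalized counts in the 12 HIP libraries, 43.1 and 8.99 in those of animals 30 and 43, and 0 to 15.6 in OC.

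Peptide systems showed no common direction. Of 23 precursors, 6 rose and 6 fell in 14 pairs, against 24.9% and 19.8% of all identifiers. In 12 pairs 7 rose and 7 fell, where 4666 of all 16314 identifiers were higher and 3965 lower. GAL, galanin, rose by 2.24 ± 0.39 and 2.50 ± 0.41, NMB by 1.33 ± 0.28 and 1.61 ± 0.23, and ADCYAP1 by 1.17 and 1.03. NMU fell by -1.75 ± 0.24 and -1.82 ± 0.25, and CRH, the stress hormone releaser, by -1.17 ± 0.16 and -1.31 ± 0.14. Among 21 peptide receptors 8 rose and 8 fell in both sets, and the median was 0.14 in 14 pairs but -0.22 in 12. NPFFR2, the receptor of neuropeptide FF, rose by 4.37 ± 0.42 and 4.92 ± 0.29, NTSR1 by 2.72 ± 0.26 and 3.04 ± 0.19, and NPY1R by 2.52 ± 0.23 and 2.47 ± 0.24. HCRTR1, an orexin receptor, fell by -1.50 and -1.74, and CRHR1 by -1.37 and -1.44.

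Of 60 potassium channel subunits, 17 rose and 18 fell in 14 pairs, and 18 rose and 24 fell in 12. In 14 pairs the share of rises was close to the 24.9% of all identifiers and that of falls was above their 19.8%. In 12 pairs, where 4666 of all 16314 identifiers were higher and 3965 lower, the share of falls was again the larger. KCNC1, the channel of fast-firing neurons, had 1354 to 2642 normalized counts (median 1799) in the 12 HIP libraries and 4251 and 3029 in those of animals 30 and 43, against 5710 to 11732 (median 8609) in OC. The groups were apart with all libraries included, and the fall was -2.07 ± 0.11 in 14 pairs (adjusted p = 3.04e-10) and -2.19 ± 0.09 in 12. The sodium-activated channels KCNT2 and KCNT1 went opposite ways, with a rise of 2.51 ± 0.24 and 2.45 ± 0.24 for KCNT2 and a fall of -1.51 and -1.62 for KCNT1. Of 26 sodium and calcium channel genes, 9 rose and 7 fell in 14 pairs, and 10 rose and 7 fell in 12. In 14 pairs both shares were above the 24.9% and 19.8% of all identifiers. SCN3B, an accessory subunit, rose by 2.97 ± 0.19 and 3.20 ± 0.15, while SCN1A, the channel of interneuron axons, fell by -1.75 ± 0.29 and -2.06 ± 0.20. NEFH, the heavy neurofilament of thick axons, fell by -1.23 ± 0.16 and -1.14 ± 0.16, and VAMP1, the synaptobrevin of fast terminals, by -2.44 ± 0.15 and -2.62 ± 0.13. RIMS3, of the release zone, had 3480 to 10088 normalized counts (median 6064) in the 12 HIP libraries and 49263 and 49327 in those of animals 30 and 43, against 23502 to 59758 (median 40413) in OC, and fell by -2.26 ± 0.26 and -2.63 ± 0.15. Over 32 genes of vesicle release, 9 rose and 11 fell in 14 pairs, against 24.9% and 19.8% of all identifiers, and 10 rose and 15 fell in 12.

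Genes of neuron production did not move as 1 group. Of 20 tested, 13 rose and 4 fell in both sets of pairs, with medians of 0.62 and 0.75. In 14 pairs 24.9% of all identifiers were higher and 19.8% lower. NEUROG2, a factor that commits progenitors to glutamatergic neurons, had 129.7 to 398.3 normalized counts (median 289.9) in the 12 HIP libraries and 0 and 1.8 in those of animals 30 and 43, against 0 to 15.8 (median 1.87) in OC. The 12 were clear of every cortical library, and the rise was 5.27 ± 0.69 in 14 pairs (adjusted p = 6.82e-06) and 6.31 ± 0.33 in 12 (2.34e-10). EOMES, which follows NEUROG2 in intermediate progenitors, had 1.01 to 10 normalized counts (median 3.77) in the 12 HIP libraries and 5.91 and 0 in those of animals 30 and 43, against 12.9 to 122.6 (median 46.5) in OC and 0 to 10.9 in PFC. It fell by -3.33 ± 0.34 in 14 pairs and -3.13 ± 0.29 in 12. DCX, the marker of migrating young neurons, had 16.4 to 192.2 normalized counts in the 12 HIP libraries and 385.0 and 422.8 in those of animals 30 and 43, against 17.6 to 163.1 in OC. It did not pass, at 0.48 ± 0.31 (adjusted p = 0.231) and 0.13 ± 0.26 in 12 pairs. The neurogenesis list also holds the glial and neuronal genes FABP7, at 1.05 and 1.14, NES, at 0.59 and 0.86, and STMN1, which fell by -1.05 and -1.29.

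Developmental signalling and guidance genes differed between the regions in these old animals. Of 35 Wnt pathway genes, 14 rose and 6 fell in 14 pairs, against 24.9% and 19.8% of all identifiers. In 12 pairs 16 rose and 6 fell. The ligand WNT4 had 473.7 to 1088 normalized counts (median 789.5) in the 12 HIP libraries and 40.5 and 46.8 in those of animals 30 and 43, against 11.8 to 77.6 (median 21.5) in OC, and rose by 4.25 ± 0.41 and 4.88 ± 0.21. The ligand WNT2 rose by 3.03 ± 0.32 and 3.16 ± 0.35 and the receptor FZD7 by 2.54 ± 0.19 and 2.79 ± 0.14, while the antagonist DKK1 fell by -1.61 and -2.11. Of 54 ephrin, semaphorin, slit and netrin genes, 19 rose and 18 fell in 14 pairs, against 24.9% and 19.8% of all identifiers, and 23 rose and 18 fell in 12. The semaphorin receptors NRP1 and NRP2 rose, NRP1 by 2.24 ± 0.23 and 2.56 ± 0.14 and NRP2 by 1.94 ± 0.21 and 2.25 ± 0.11, while the ligands SEMA3A and SEMA3F fell by -1.43 and -1.64 in 14 pairs and -1.76 and -1.65 in 12. SLIT1 rose by 3.01 ± 0.17 and 3.12 ± 0.16 and its receptor ROBO1 by 1.93 and 1.93, whereas the ephrin receptor EPHA3 fell by -2.48 ± 0.29 and -2.85 ± 0.20. Among retinoic acid genes 6 of 14 rose and 5 fell in both sets, with RXRG up by 1.65 ± 0.16 and 1.84 ± 0.11 and RARB down by -1.70 ± 0.21 and -2.02 ± 0.09.

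Among steroid hormone genes more fell than rose. Of 9 corticosteroid response genes 1 rose and 5 fell in 14 pairs, and 3 rose and 5 fell in 12. Over all identifiers 24.9% were higher and 19.8% lower in 14 pairs, and 4666 higher and 3965 lower of 16314 in 12. NR3C1, the glucocorticoid receptor, had 1658 to 3029 normalized counts (median 2445) in the 12 HIP libraries and 9009 and 4521 in those of animals 30 and 43, against 3453 to 7961 (median 5029) in OC. It fell by -0.95 ± 0.17 in 14 pairs and -1.17 ± 0.11 in 12 (adjusted p = 0.000191 and 1.87e-07), and the 12 libraries did not overlap OC. HSD11B1, which regenerates active glucocorticoid, fell by -1.05 ± 0.16 and -1.16 ± 0.13. The rows of NR3C2 and ESR1 failed the level check and are not given. Of 13 sex steroid genes 1 rose and 6 fell in 14 pairs, and 2 rose and 6 fell in 12: the estrogen-related receptor ESRRG fell by -2.40 ± 0.29 and -2.75 ± 0.21 and ESRRA by -1.22 ± 0.12 and -1.17 ± 0.12, and the membrane protein PGRMC1 rose by 0.91 ± 0.13 and 0.97 ± 0.14. ESR2, the estrogen receptor beta, had 4.7 to 47.5 normalized counts in the 12 HIP libraries and 22.8 and 18 in those of animals 30 and 43, against 3.51 to 28.5 in OC, and did not pass (0.48 ± 0.28 in 14 pairs, adjusted p = 0.178, and 0.42 ± 0.31 in 12).

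Of 25 immediate early genes 6 rose and 4 fell in 14 pairs, close to the 24.9% and 19.8% of all identifiers. In 12 pairs 7 rose and 4 fell. BDNF, a neurotrophin induced by activity, had 1025 to 2628 normalized counts (median 1916) in the 12 HIP libraries and 740.5 and 629.6 in those of animals 30 and 43, against 203.3 to 965.7 (median 293.5) in OC, and rose by 2.30 ± 0.24 and 2.58 ± 0.20. NR4A3 rose by 2.65 ± 0.22 and 2.87 ± 0.19 and NPTX2, a pentraxin at excitatory synapses, by 2.02 ± 0.27 and 2.31 ± 0.24. PTGS2, cyclooxygenase 2, had 10 to 186.4 normalized counts (median 43.6) in the 12 HIP libraries and 877.3 and 696.2 in those of animals 30 and 43, against 417.5 to 1341 (median 619.1) in OC. It fell by -3.23 ± 0.45 in 14 pairs and -3.91 ± 0.25 in 12, and EGR1 and NR4A1 both fell by -1.19 in 14 pairs and by -1.29 and -1.38 in 12.

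**Figure D4:**
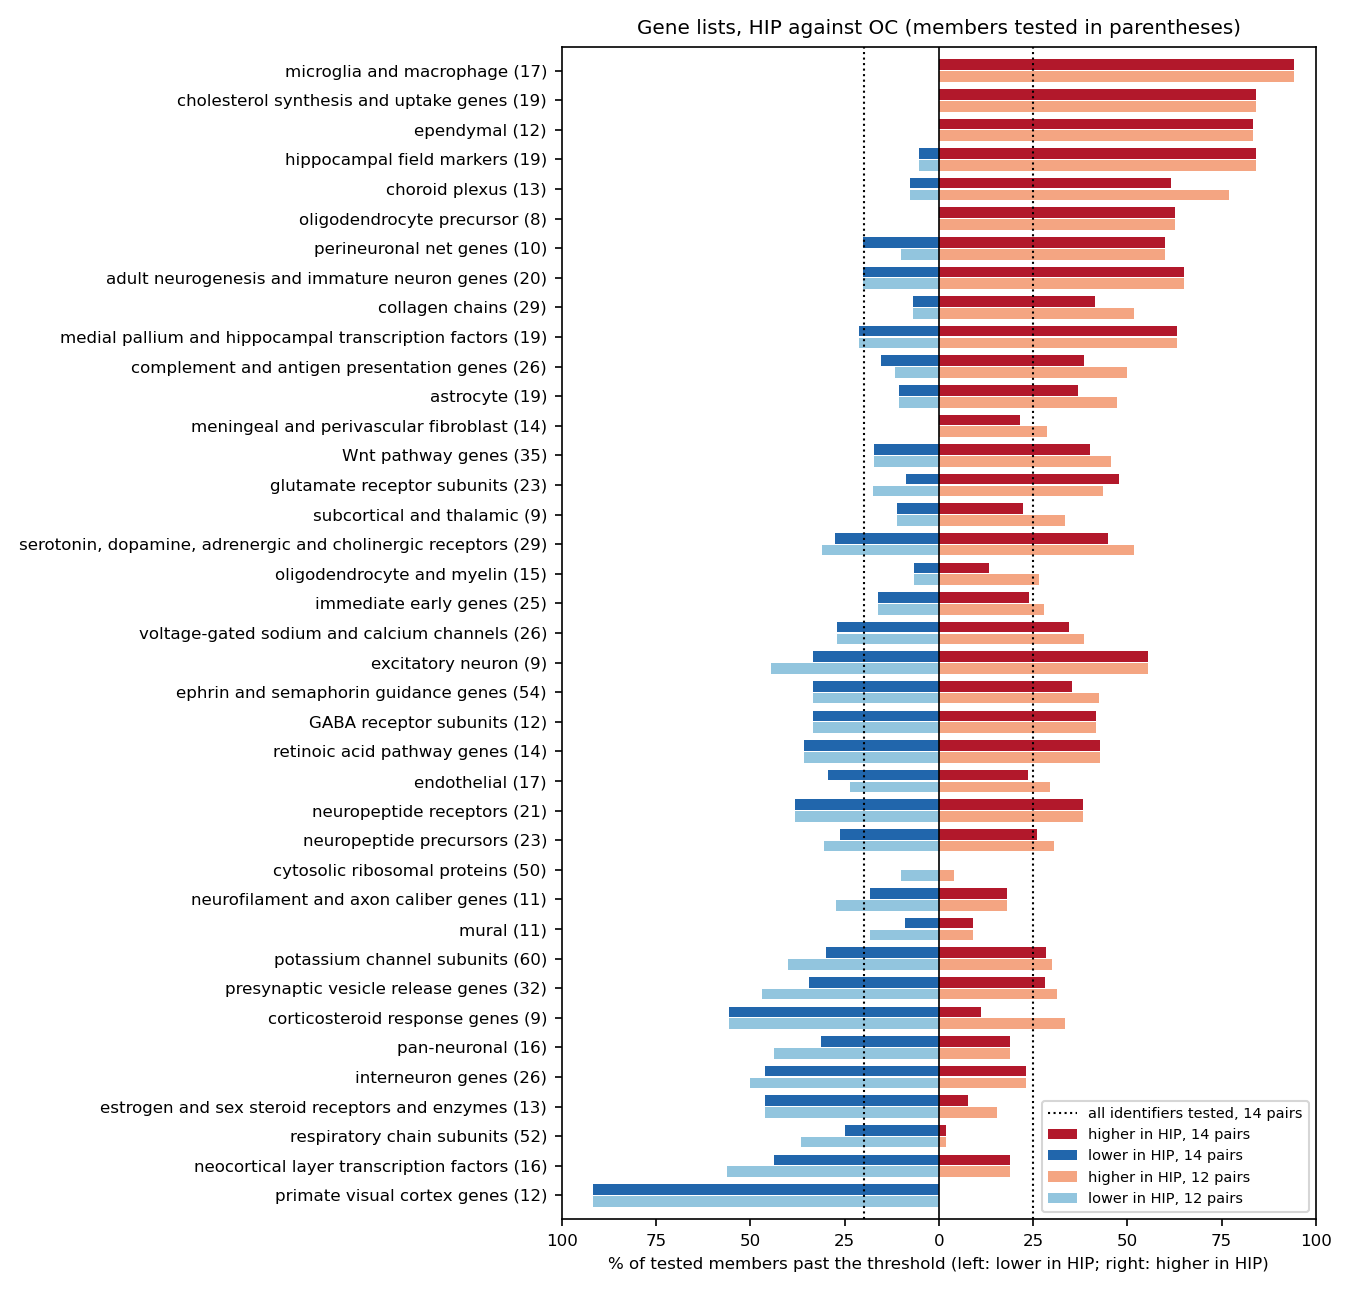
Share of the tested members of each gene and marker list with at least 8 members tested that passed in each direction, to the right for higher and to the left for lower in HIP; dark bars are all 14 pairs and pale bars the 12 pairs without animals 30 and 43. Dotted lines mark the shares of all identifiers, 24.9% higher and 19.8% lower; microglia markers (16 of 17 higher) and visual cortex genes (11 of 12 lower) lie at the ends.

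Of 17 microglia and macrophage markers tested, 16 rose and none fell in both sets of pairs, with medians of 1.03 and 1.09, and LYVE1, a marker of perivascular macrophages, was the member that did not pass. In OC against PFC, 9 of the 17 were lower and 1 higher, with a median of -0.41. Their summed level was 21881 to 55747 normalized counts (median 29727) in the 12 HIP libraries and 13102 and 17696 in those of animals 30 and 43, against 9349 to 23362 (median 13561) in OC. In bulk tissue, more cells of a type and more RNA per cell cannot be told apart, and the same holds for fewer cells and less RNA. CSF1R, the receptor that microglia need to survive, had 3361 to 7465 normalized counts (median 5071) in the 12 HIP libraries and 2090 and 2394 in those of animals 30 and 43, against 1366 to 2822 (median 1917) in OC. The 12 libraries did not overlap OC, and the rise was 1.19 ± 0.16 in 14 pairs (adjusted p = 1.06e-05) and 1.43 ± 0.09 in 12. P2RY12, a receptor of surveying microglia, rose by 1.22 ± 0.12 and 1.21 ± 0.12. Among 26 complement and antigen presentation genes, some of them microglial, 10 rose and 4 fell in 14 pairs, and 13 rose and 3 fell in 12. In 14 pairs 24.9% of all identifiers were higher and 19.8% lower. C3, the central complement protein, rose by 1.06 ± 0.19 and 1.34 ± 0.10, C1QC by 1.06 ± 0.15 and 1.21 ± 0.13 and CD74 by 0.64 and 0.91, while C1R fell by -0.93 and -1.02.

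Of 8 oligodendrocyte precursor markers 5 rose and none fell in both sets, with MEGF11 up by 1.56 ± 0.18 and 1.80 ± 0.12. Over all identifiers 24.9% rose and 19.8% fell in 14 pairs. In OC against PFC, 6 of the 8 were lower and 2 higher, with a median of -0.44. Summed levels were 14616 to 26322 in the 12 HIP libraries, 9455 to 16706 in OC and 10344 to 22672 in PFC, so HIP and PFC overlapped. Of 15 myelin and oligodendrocyte markers 2 rose, 1 fell and 12 did not pass in 14 pairs, both shares below those of all identifiers. In 12 pairs 4 rose and 1 fell. MOG, a myelin surface protein, had 16349 to 40367 normalized counts in the 12 HIP libraries and 6153 and 15642 in those of animals 30 and 43, against 9025 to 42586 in OC, and did not pass (0.20 ± 0.18 in 14 pairs, adjusted p = 0.408, and 0.28 ± 0.17 in 12). Of 19 astrocyte markers 7 rose, 2 fell and 10 did not pass in 14 pairs, and 9 rose and 2 fell in 12. The share of falls was below the 19.8% of all identifiers in 14 pairs. AGT, angiotensinogen, had 26143 to 39700 normalized counts (median 31123) in the 12 HIP libraries and 14874 and 10333 in those of animals 30 and 43, against 5853 to 17126 (median 10737) in OC, and rose by 1.42 ± 0.13 and 1.59 ± 0.10. CD44, a hyaluronan receptor of fibrous astrocytes, rose by 1.59 ± 0.32 and 2.00 ± 0.24, and the water channel AQP4 by 0.83 ± 0.12 and 0.80 ± 0.12. Of 17 endothelial markers 4 rose and 5 fell in 14 pairs, and 5 rose and 4 fell in 12. In 14 pairs the share of rises was close to the 24.9% of all identifiers and that of falls above their 19.8%. In 12 pairs both shares were close to those of all identifiers, 4666 higher and 3965 lower of 16314. The rows of MBP and GFAP failed the level check, since each was at or near 0 in HIP and OC and high in the amygdala.

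Markers of the cells that line the ventricle rose. Of 12 ependymal markers 10 rose and none fell in both sets of pairs, with medians of 1.40 and 1.52. Their sums were 15023 and 14869 in the HIP libraries of animals 33 and 40 and 3767 to 5652 in the other 10 of the 12. The libraries of animals 30 and 43 had 3276 and 4675, against 2442 to 6103 in OC. SPAG17, a part of the moving cilium, had 22.9 to 154.3 normalized counts (median 60.8) in the 12 HIP libraries and 3.38 and 7.2 in those of animals 30 and 43, against 0 to 11.9 (median 1.2) in OC, and rose by 4.39 ± 0.40 and 4.76 ± 0.37. FOXJ1, the master factor of motile cilia, rose by 2.19 and 2.72. Of 13 choroid plexus markers 8 rose and 1 fell in 14 pairs, 10 rose and 1 fell in 12, and 6 rose and 2 fell without animals 33 and 40. TTR, transthyretin, the main secreted protein of the choroid plexus, had 1325282 and 1462333 normalized counts in the HIP libraries of animals 33 and 40, 2138 to 49610 in the other 10 of the 12, and 114.0 and 27 in those of animals 30 and 43, against 78.3 to 3126 (median 408.4) in OC. The 2 highest libraries held most of the signal, and the difference was 3.83 ± 0.93 in 14 pairs (adjusted p = 0.00255), 4.89 ± 0.78 in 12, 2.78 without animals 33 and 40, and 3.84 without all 4. CLDN2, a tight junction protein of this epithelium, had 390.2 and 595.7 in those 2 libraries and 0 to 31.7 in the other 10, against 0 to 7.87 in OC. The part of ventricular tissue in the other differences was not tested; without animals 33 and 40 the counts were 4038 higher and 3302 lower.

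**Figure D5:**
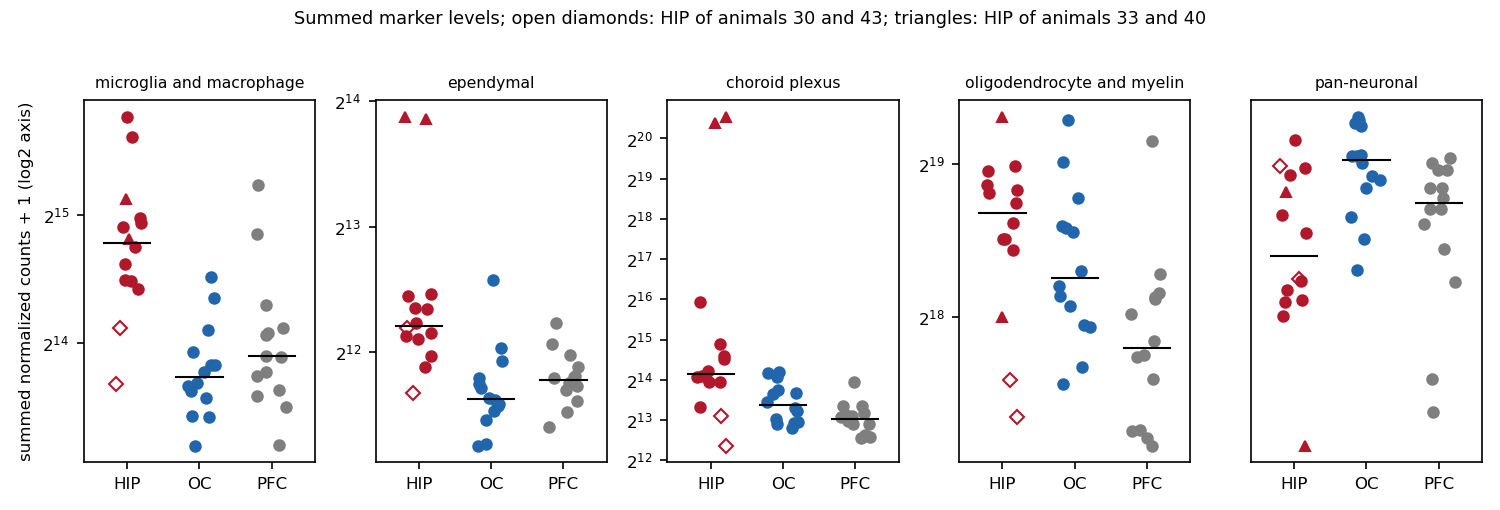
Summed normalized counts of the named markers of 5 cell types in every library, on a log2 axis after adding 1, with HIP, OC and PFC from left to right (14 each) and bars at the medians. Microglia sums of the 12 HIP libraries run from 21881 to 55747 against 9349 to 23362 in OC, and the HIP libraries of animals 33 and 40 (triangles) stand apart for choroid plexus and ependymal markers; open diamonds are the libraries labelled hippocampus of animals 30 and 43.

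Of 19 genes of cholesterol synthesis and uptake 16 rose and none fell in both sets of pairs, with medians of 0.54 and 0.61, and none was at least 2-fold higher in 14 pairs. SREBF2, the factor that induces the pathway, had 24176 to 42392 normalized counts (median 37100) in the 12 HIP libraries and 25289 and 26059 in those of animals 30 and 43, against 12242 to 24998 (median 20197) in OC. The groups overlapped at their edges, and the rise was 0.76 ± 0.10 in 14 pairs (adjusted p = 1.03e-05) and 0.87 ± 0.08 in 12 (2.36e-07). Of 52 respiratory chain subunits 1 rose, 13 fell and 38 did not pass in 14 pairs, against 19.8% lower over all identifiers, and 1 rose and 19 fell in 12, with medians of -0.22 and -0.24. ATP5F1A, a catalytic subunit of ATP synthase, had 58000 to 69811 normalized counts (median 66715) in the 12 HIP libraries and 62917 and 51385 in those of animals 30 and 43, against 93887 to 126813 (median 106022) in OC. The groups did not overlap, and the fall was -0.74 ± 0.07 (adjusted p = 1.83e-07) and -0.69 ± 0.06. PFC libraries had 49085 to 75907, and 24 of the 52 subunits were higher and 0 lower in OC than in PFC. Of 50 cytosolic ribosomal protein genes 0 passed in either direction with limma in 14 pairs, where 2 had an unadjusted p under 0.05. In the same pairs edgeR called 1 lower and DESeq2 3 lower, and in 12 pairs with limma 2 rose and 5 fell.

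Of 29 collagen chains 12 rose and 2 fell in 14 pairs, and 15 rose and 2 fell in 12. Over all identifiers 24.9% were higher and 19.8% lower in 14 pairs, and 4666 higher and 3965 lower of 16314 in 12. In OC against PFC, 20 of the 29 were lower and 1 higher, with a median of -0.68. Their summed level was 20567 to 52694 normalized counts (median 26734) in the 12 HIP libraries and 13936 and 18797 in those of animals 30 and 43, against 12371 to 36685 (median 19077) in OC. Of 14 markers of meningeal and perivascular fibroblasts, 3 of them collagens, 3 rose and none fell in 14 pairs, and 4 rose in 12. In 14 pairs the share of rises among these markers was below that of all identifiers. The summed fibroblast markers were 56724, 68966 and 66977 in the HIP libraries of animals 33, 40 and 41. They were 20990 to 29851 in the other 11, against 15357 to 31910 in OC. Of 11 mural markers 1 rose and 1 fell in 14 pairs, and 1 rose and 2 fell in 12, with sums of 34232 and 36502 in the HIP libraries of animals 40 and 41 and 9003 to 19609 in the other 12, against 10920 to 25614 in OC. Without animals 33 and 40, and likewise without animal 41, 11 collagen chains rose and 2 fell. COL11A1, a fibrillar collagen, had 707.5 to 1795 normalized counts (median 1316) in the 12 HIP libraries and 472.0 and 514.5 in those of animals 30 and 43, against 105.4 to 361.9 (median 284.5) in OC, and rose by 2.12 ± 0.14 and 2.26 ± 0.12 with groups apart. COL25A1, a membrane collagen found in amyloid plaques in human brain, rose by 2.62 ± 0.31 and 2.90 ± 0.26, and COL26A1 fell by -2.88 ± 0.24 and -3.15 ± 0.20. Among 10 perineuronal net genes 6 rose and 2 fell in 14 pairs, and 6 rose and 1 fell in 12. ACAN, aggrecan, the proteoglycan that defines the nets around fast-spiking neurons, had 75.9 to 264.1 normalized counts (median 131.1) in the 12 HIP libraries and 159.6 and 97.1 in those of animals 30 and 43, against 200.3 to 904.4 (median 484.3) in OC, and fell by -1.74 ± 0.15 and -1.66 ± 0.14. The proteoglycans VCAN and NCAN rose by 0.81 and 0.73 in 14 pairs and by 0.88 and 0.73 in 12.

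Whether estradiol changed the regional difference was asked by comparing the within-animal differences of 7 OvH-HT and 7 OvH animals. No identifier passed with limma (0 of 16342, 0%), and 142 had an unadjusted p under 0.05, with no other tool run for this question. Without animals 30 and 43, both OvH, 0 passed and 197 of 16314 had an unadjusted p under 0.05. Both shares were below 0.05, the share expected where no identifier differs, so the p-values were not evenly spread. The lack of a call therefore does not show the lack of an effect. The smallest p among the genes that could be named was that of PI15, a secreted protease inhibitor. Its difference, HIP minus OC, was 1.72 to 4.39 in OvH-HT animals (median 2.46) and -1.02 to 1.73 in OvH animals (median 0.13). The groups overlapped at their edges and differed by 2.64 ± 0.52 (SE; p = 0.000103, adjusted p = 1 with limma), and by 2.50 in 12 pairs. NMRK2, a kinase of NAD synthesis known from muscle, had differences of -3.33 to -1.14 in OvH-HT and -1.08 to 0.99 in OvH animals, whose highest values came from animals 30 and 43: without them OvH animals ran from -1.08 to -0.20. The difference between treatments was -1.92 ± 0.45 (adjusted p = 1) and -1.50 in 12 pairs. TDRD5, MYRFL and MMP3 came next, with differences between treatments of 3.15 ± 0.79, 1.56 ± 0.47 and -2.04 ± 0.68 in 14 pairs, all with an adjusted p of 1 with limma, and of 2.80, 1.20 and -2.03 in 12. MMP3, stromelysin 1, an enzyme that cuts the matrix, held 0 to 2.5 normalized counts in the 12 HIP libraries and 6.75 and 5.4 in those of animals 30 and 43, against 4.34 to 312.4 (median 97.1) in OC.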

How the data were processed

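Total RNA from 4 brain regions of 14 animals was made into stranded mRNA libraries, per the labels. Per the submitters' processing notes, FastQC 0.1.1.2, Trimmomatic, STAR 2.7.3a and edgeR 3.28.0 were used with the build Mmul_10. What counted the reads, on which annotation and with which strand setting is not given in the sources used here. The values of the table, as deposited, are a normalized signal made by the authors: read counts scaled to an upper quartile of 2818.9375 in every library. Undoing the scaling gave whole reads for 100% of values within 0.01, and 6.83% of values were 0. Normalized counts are not divided by gene length, so levels are compared within a gene.

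Under each identifier the amygdala columns and those of the other regions often hold different transcripts. The MBP row averaged 608200 in amygdala and 0 in hippocampus, and the next row 0 and 554400. Names therefore needed a level within 2 (log2), which held for 13520 identifiers (75.9%). Of all pairings of 2 identifiers 33.1% pass that limit, and 96.6% pass between HIP and OC.

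Differences were fitted with limma 3.58.1 (R 4.3.3), with an intensity trend and the animal as a block, on log2(value + 1) for identifiers whose mean over those 28 libraries was 10 or more, with Benjamini-Hochberg adjustment over all of them. The fit was tested on simulated data. Recovered reads were also tested with edgeR 4.0.16 and DESeq2 1.42.0. Pairing comes from the animal number in the labels: deviations of the HIP and OC libraries of an animal correlated at -0.321 to 0.679 (median 0.40), above 0.1 in 10 of 14. Animals 37 and 42 had -0.058 and -0.211. By this measure, over 13622 identifiers, 6 of 14 HIP libraries matched the OC library of their own animal best. No HIP or OC libraries were near copies (lowest chi-square per degree of freedom 29.11). The labels tie libraries to animals, so the spread is between animals. The named genes were, by rule, the 15 largest differences per direction with 1 sign in 14 animals and a mean of at least 100 in the higher region, up to 4 called members of each list, a fixed set of genes, and the 5 with the smallest p for estradiol. Other list members are given as examples chosen after their values were seen. The genes, lists and tests were chosen with earlier results of these data known. Some genes that these rules name are not reported here.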

Additional observations from a re-analysis of the deposited data

How the results depend on the processing

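No difference of a named gene changed direction under any alternative run. Of 172 genes called among 177, 136 kept the call in all of them and 36 lost it in at least 1, mostly when OvH animals alone were fitted. In OvH animals alone 1508 identifiers were higher and 1182 lower, and without animals 30 and 43 (an alternative chosen after seeing the data) 2913 and 2659 in the 5 left. With OvH-HT animals alone 3405 were higher and 2367 lower. A minimum mean of 100 left 798 identifiers at least 2-fold higher, with fewer identifiers tested. Without the replicate block, the unpaired fit called 3703 higher and 3039 lower. With the replicate block, edgeR on recovered reads called 3677 higher and 3655 lower and DESeq2 4046 and 3874. Scaling to equal totals gave 3675 higher and 3601 lower. Leaving out 1 animal at a time gave 3711 to 4453 higher, 2936 to 3546 lower, 1266 to 1422 at least 2-fold higher and 749 to 850 at least 2-fold lower. ABCC9 was the called gene that missed the threshold without animals 30 and 43 (0.66 against 0.85 in 14 pairs). Requiring both neighbouring rows to pass the level check, also added after seeing the data, left 9066 identifiers to name, and a level within 1 left 9715. The limits are the labels of animals 30 and 43, the names, and bulk tissue, in which the shares of cells and fields are unknown.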
